A study of Oryza sativa with 9 samples.

Results

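This account is about 73 rice loci whose root transcripts were high in the strain R1 and low or not detected in the strain SR86. They were selected on the measured values. A locus was taken when its lowest FPKM (fragments scaled by transcript length and by the mapped total of the library) over the 3 R1 libraries was at least 5 and at least 8 times its highest FPKM over the 6 SR86 libraries. Of the 57624 loci numbered by chromosome, 13095 had at least 5 FPKM in every R1 library, and 0.557% of these met the 8-fold limit. The difference between the strains is therefore given below as a description, with no test. The mirror limit, at least 5 FPKM in every SR86 library and at least 8 times the highest R1 library, was met by 59 of 11449 loci.

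Roots were harvested about a month after planting from 3 groups with 3 libraries each. R1, labelled common rice, was grown in fresh water (FW). SR86, labelled salt-water rice, was grown in fresh water or in salt water (SW). These groups follow the labels, whereas a sentence of the study's methods puts R1, and not SR86, in both waters. A library is named by its strain, water and number, as in SR86 SW2. The labels list both strains under japonica, while the study describes SR86 as an indica rice of the seaside with high salt tolerance and R1 as a japonica-indica hybrid with low salt tolerance. No library of R1 in SW is among the 9, and the study states that R1 cannot survive in sea water. All 6 SR86 libraries come from the same strain, so the loci separate the strains and not the waters. Reads of both strains were mapped to one transcript set, that of the reference cultivar, so a low value in SR86 cannot be told apart from a transcript that differs in sequence or is missing there. The 9 libraries were checked against root markers: the silicon transporters Lsi1 and Lsi2 and the root protein RCc3 were above 0 in every library and summed to 295 to 1685 FPKM, and the 3 leaf markers, of photosynthesis, summed to 3.13 to 34.9 FPKM. FPKM keeps no read totals. Steps in the low values gave approximate depths of 0.953 to 1.66 times that of R1 FW1 over the 6 FW libraries, and of 0.914 to 1.27 times that of SR86 SW1 over the 3 SW libraries. Between the waters a factor of 2 could not be settled. SR86 FW1 stood apart by its leaf marker sum (34.9 FPKM, against 3.13 to 8.44 FPKM in the other libraries) and had the lowest root marker sum (295 FPKM). Its sum of the features named LOC_Osm1 (2518 FPKM) was also the highest, but SR86 FW2 was close (2279 FPKM). Without SR86 FW1, 77 loci met the limits, and 19 of the 77 were listed at 0 in the other SR86 libraries. All 73 were among them, but leaving out a library can only loosen the limits, so this was fixed in advance.

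Several of the loci belong to plant families of secreted proteins. Bowman-Birk inhibitors block digestive proteases such as trypsin, thaumatin-like proteins and chitinases belong to the pathogenesis-related proteins, and thionins are small antimicrobial peptides rich in cysteine. RALF peptides (rapid alkalinization factors) are hormones of the cell surface that raise the pH around the cell and restrain root growth in Arabidopsis. Many genes of these families lie in tandem arrays, in which copies can differ between cultivars.

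The study's lists of differentially expressed genes hold 72 of the 73 loci, 70 of them with an annotation. The largest class, 32 loci, had no known function (30 are named expressed protein and 2 have an empty annotation), which is 44.4% of the 72 listed loci against 25% of all 6503 loci in those lists. Mobile elements (transposons and retrotransposons) made up 12 loci, 16.7% against 5.74% in the lists. The class named secreted defence and signal peptides, which also takes in chitinase, thaumatin-like and plastocyanin-like proteins, made up 9 loci, 12.5% against 2.75%. Another 7 loci were placed in the class of protein turnover. It takes in the AAA-type ATPase LOC_Os12g28550, whose annotation names no such role. Of the rest, 6 are metabolic enzymes or transporters, 5 are nuclear, chaperone or other intracellular proteins, and 1 is an immune receptor of the NLR type (NBS-LRR). NLR loci apart, no locus was placed in the class of kinases, receptors and leucine-rich repeat proteins, which holds 417 loci (6.41%) of the lists. The class left for all other annotations, 2045 loci (31.4%) of the lists, held none of the 73 either. The shares therefore depend on how the named classes were drawn. The lists also pool genes higher or lower in SR86 against R1 and in SW against FW, while the 73 could only be lower in SR86. They were made from these same libraries, so the shares describe this set and were not tested.

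**Figure D1:**
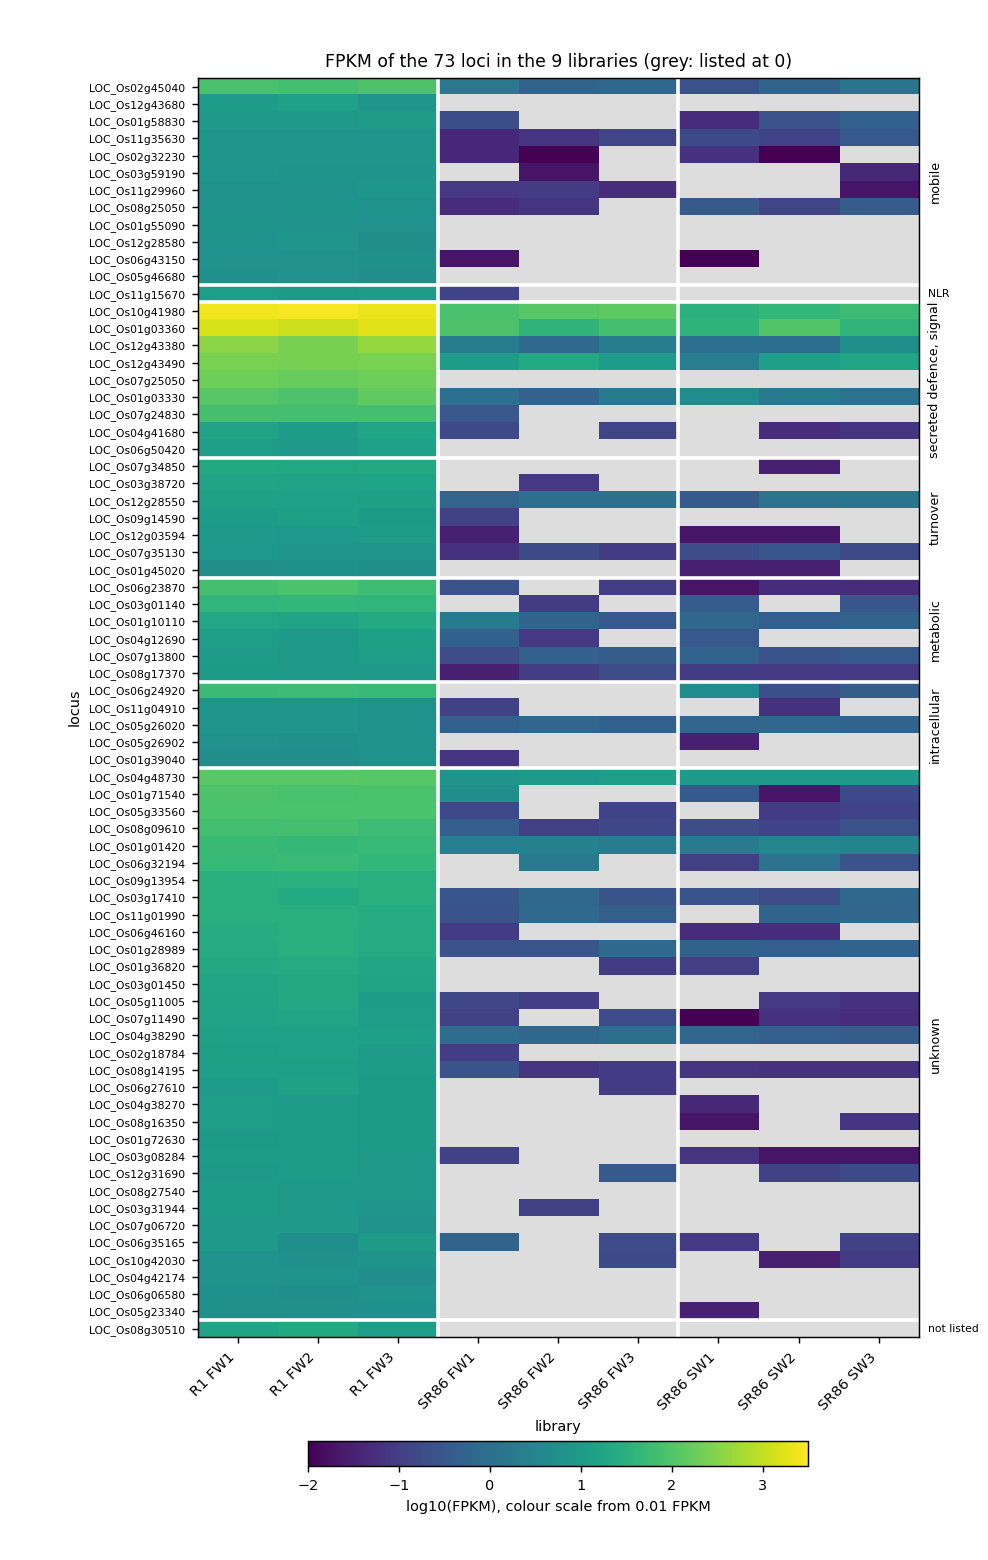
FPKM of the 73 loci (vertical axis, grouped by annotation and ordered by R1 mean) in the 9 libraries (horizontal axis), with colour on a log10 scale and grey for values listed at 0. The 3 R1 columns are filled throughout, and 31 to 43 loci were above 0 in any one SR86 library.

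The level of the 73 loci in R1 was modest for most and high for a few. The R1 mean ran from 5.49 to 2468 FPKM with a median of 11.8 FPKM, against a median of 20.4 FPKM for all 13095 loci past the 5 FPKM limit. It was under 20 FPKM in 49 loci and at least 50 FPKM in 15. The 9 secreted defence and signal peptides had the highest levels, with a median R1 mean of 183 FPKM and 7 of them at 50 FPKM or more. They carried 77.2% to 79.6% of the summed FPKM of all 73 loci in the R1 libraries. That sum was 6147 to 6387 FPKM in R1, 198 to 249 FPKM in SR86 FW and 101 to 181 FPKM in SR86 SW.

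In SR86, 14 of the 73 loci were listed at 0 in all 6 libraries, 44 were above 0 in both waters, 8 in FW alone and 7 in SW alone. The highest SR86 library stood under 0.1 FPKM in 29 loci and under 1 FPKM in 60. It reached 5 FPKM in 6 loci: RALFL26, BBTI5, both thaumatin loci, LOC_Os04g48730 and LOC_Os01g71540. Among the 59 loci above 0 in some SR86 library, the ratio of the lowest R1 to the highest SR86 value ran from 9 to 670 with a median of 55.3, and was 100 or more in 20. SR86 FW1 held the highest SR86 value of 21 of these 59 loci and had 43 of the 73 above 0. SR86 FW2 and SR86 FW3 had 31 each, at depths of 1.36 and 1.13 against 0.953 for SR86 FW1, and the SW libraries had 39 to 41. The part of the marker sums of SR86 FW1 in these counts was not tested.

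**Figure D2:**
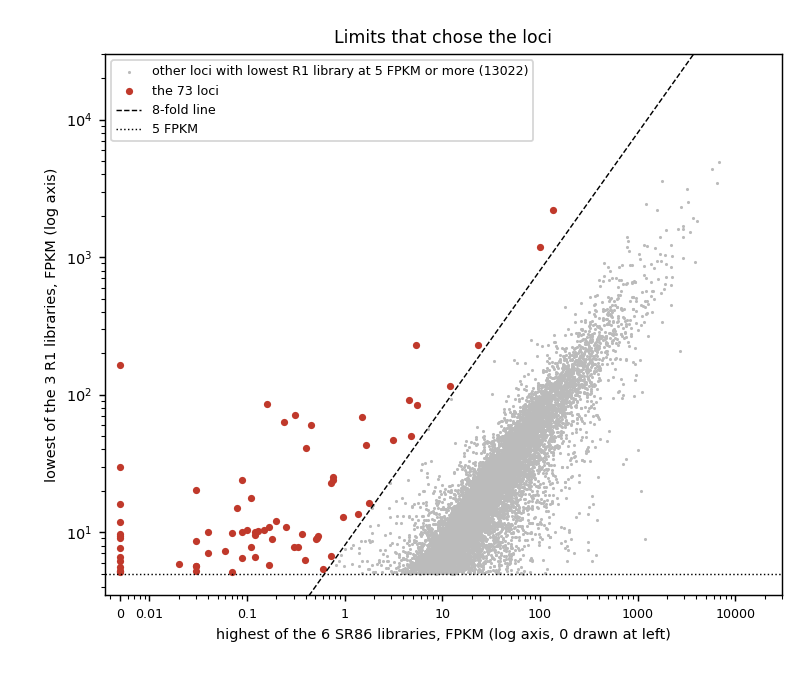
Lowest of the 3 R1 libraries (vertical axis, FPKM, log scale) against the highest of the 6 SR86 libraries (horizontal axis, FPKM, log scale with 0 drawn at the left end) for the 13095 loci with at least 5 FPKM in every R1 library. Red points are the 73 loci above the dashed 8-fold line, 14 of them at 0 in SR86, and grey points are the other loci.

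Loci near the limits were as follows. Just inside the 8-fold limit stood LOC_Os06g35165 (expressed protein) at a ratio of 9, LOC_Os01g10110 (cytokinin dehydrogenase) at 9.11 and LOC_Os05g26020 (cyclin) at 9.15. Just outside stood LOC_Os10g24004 (expressed protein) at 7.99, LOC_Os08g01810 (matrix attachment region binding protein) at 7.97 and LOC_Os05g08900 (expressed protein) at 7.9. The exclusion of LOC_Os08g01810 rested on 1 library, since it had 7.06 FPKM in SR86 SW1 and 0.19 to 0.99 FPKM in the other SR86 libraries, with 56.3 to 67.5 FPKM in R1. At the 5 FPKM limit, LOC_Os12g28580 (5.15 FPKM in its lowest R1 library), LOC_Os01g39040 (5.17 FPKM) and LOC_Os04g42174 (5.2 FPKM) were inside. LOC_Os01g55390 (4.99 FPKM), LOC_Os12g03601 (4.93 FPKM) and LOC_Os01g05250 (4.83 FPKM) were outside.

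The most abundant of the 73 was RALFL26 (LOC_Os10g41980), a peptide hormone precursor. The R1 libraries, given here and below in the order of their numbers, had 2447, 2752 and 2204 FPKM. Those of SR86 had 82.3, 116 and 136 FPKM in FW and 33.8, 44.7 and 57.8 FPKM in SW. All 3 groups were thus apart, with R1 highest and SR86 SW lowest, and RALFL26 was one of the few of these loci with a clear signal in SR86. Its neighbours on chromosome 10 are RALFL27 (LOC_Os10g41999) and RALFL29 (LOC_Os10g42020), in an array of 5 features that ends with LOC_Os10g42030, an expressed protein and also one of the 73. RALFL27 had 385 to 498 FPKM in R1, 157 to 231 FPKM in SR86 FW and 40.2 to 63.8 FPKM in SR86 SW. RALFL29 had the opposite order in FW, with 451 to 472 FPKM in R1 and 1214 to 2197 FPKM in SR86. In SR86 SW it had 327 to 725 FPKM, which overlapped with R1. LOC_Os10g42030 followed RALFL26 at a far lower level, with 5.75 to 7.15 FPKM in R1 and at most 0.17 FPKM in SR86. Summed over the 5 features, the array had 3375 ± 323 FPKM (SD, n = 3) in R1, 1952 ± 524 FPKM in SR86 FW and 591 ± 230.0 FPKM in SR86 SW, so the sum differed far less between the strains in FW than RALFL26 alone.

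The 2 Bowman-Birk members, BBTI3 and BBTI5, lie on chromosome 1 with 2 features between them. BBTI5 (LOC_Os01g03360) had 1498, 1183 and 1751 FPKM in R1, 91.4, 37.1 and 76.2 FPKM in SR86 FW, and 36.9, 100.4 and 39.1 FPKM in SR86 SW. BBTI3 (LOC_Os01g03330) had 119, 91.3 and 141 FPKM in R1, 1.03, 0.54 and 1.91 FPKM in SR86 FW, and 4.59, 1.81 and 1.14 FPKM in SR86 SW. For both genes the SR86 libraries of the 2 waters overlapped. Between them lies BBTI4 (LOC_Os01g03340), which ran the other way, with 97.9 to 116 FPKM in R1, 125 to 913 FPKM in SR86 FW and 208 to 574 FPKM in SR86 SW. Next to BBTI5, the kinase locus LOC_Os01g03370 and BBTI6 (LOC_Os01g03380) had 8.67 to 13.9 FPKM in R1 and at most 2.58 FPKM in SR86, and met the 8-fold limit against SR86 FW but not against SR86 SW. The array of 9 features had 3148 ± 500.2 FPKM in R1, 1315 ± 853 FPKM in SR86 FW and 981 ± 478 FPKM in SR86 SW (SD, n = 3). A large part of these sums came from LOC_Os01g03390, which is not in the study's lists. Its means were 1422 FPKM in R1, 749.8 FPKM in SR86 FW and 467 FPKM in SR86 SW.

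The thaumatin-like members LOC_Os12g43380 and LOC_Os12g43490 bound a stretch of 11 features on chromosome 12. LOC_Os12g43380 had 347, 232 and 436 FPKM in R1, 2.08, 0.76 and 2.11 FPKM in SR86 FW, and 1.00, 0.98 and 5.38 FPKM in SR86 SW. LOC_Os12g43490 had 250.5, 230.5 and 253 FPKM in R1, 10.7, 23.1 and 10.7 FPKM in SR86 FW, and 2.23, 12.5 and 17.0 FPKM in SR86 SW. The coefficient of variation over the R1 libraries was 5.1% for LOC_Os12g43490 and 30.3% for LOC_Os12g43380. Inside the array, LOC_Os12g43410 was the reverse of the members, with 8.95 to 20.9 FPKM in R1 and 612 to 1196 FPKM in SR86 FW. LOC_Os12g43430, the most abundant locus of the array, had 1041 to 1326 FPKM in R1 and 947 to 1918 FPKM in SR86 FW, so the strains overlapped. LOC_Os12g43390, next to LOC_Os12g43380, had 31.3 to 62.3 FPKM in R1 and 0.43 to 1.17 FPKM in SR86 FW, and was left out of the set by its 6.14 FPKM in SR86 SW3. Over the whole array the sums were 2043 ± 305 FPKM in R1 and 2289 ± 876 FPKM in SR86 FW (SD, n = 3), which overlapped, against 361 ± 167 FPKM in SR86 SW.

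**Figure D3:**
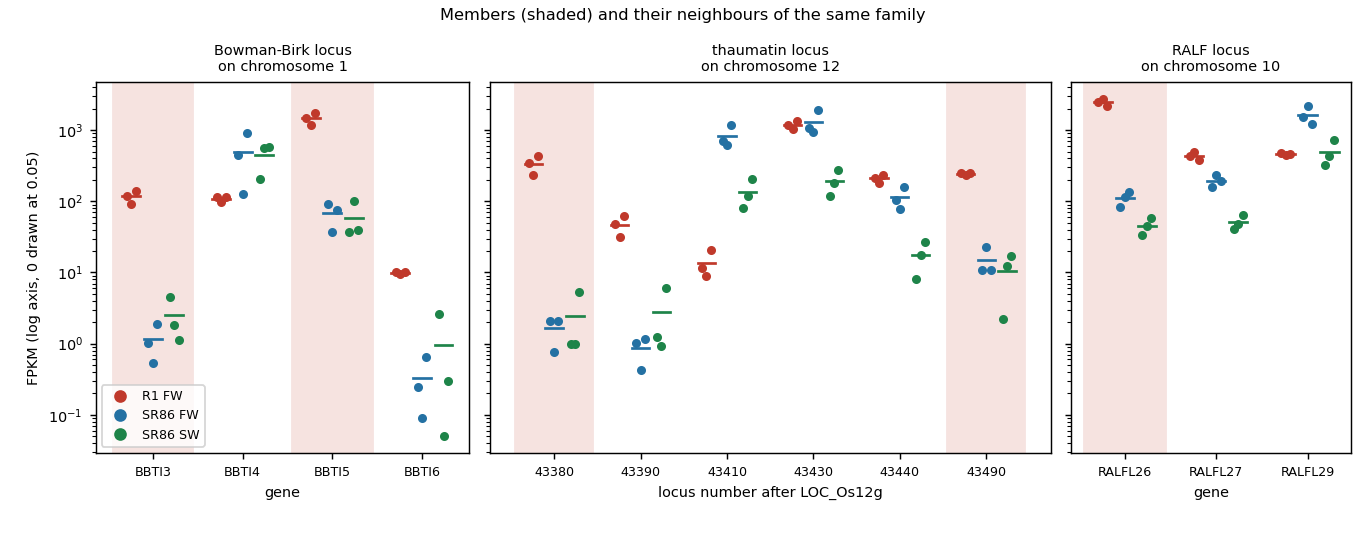
FPKM (vertical axis, log scale, 0 drawn at 0.05) of the members (shaded) and neighbours of the same family in the Bowman-Birk, thaumatin and RALF arrays (horizontal axis), with 1 point per library and a line at the group mean. In each array a neighbour, BBTI4, LOC_Os12g43410 or RALFL29, was higher in SR86 FW than in R1 while the shaded loci were lower.

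Such neighbours stand in the same tandem arrays, and the RSEM program divides reads that map to several transcripts among them. Whether reads of 1 copy in SR86 were counted to another was not tested. The values of these families are uncertain to that extent.

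The remaining loci of the secreted class had little or no signal in SR86. The thionin-like LOC_Os07g25050 had 191, 165 and 194 FPKM in R1, and all 6 SR86 libraries list it at 0. The thionin-like LOC_Os07g24830, at the other end of a stretch of 37 features on chromosome 7, had 76.5, 71.5 and 71.9 FPKM in R1 and 0.31 FPKM in SR86 FW1, and 0 in the other 5 SR86 libraries. Of the 9 thionin loci in the study's lists these 2 were the only ones whose lowest R1 library was above every SR86 library. THION5 (LOC_Os06g31960), for comparison, had 41.5 to 60.5 FPKM in R1 and 51.0 to 365 FPKM over the SR86 libraries. CHIT3 (LOC_Os04g41680), a chitinase, had 16.3, 11.0 and 17.5 FPKM in R1 and at most 0.17 FPKM in SR86. Of the 9 chitinase loci in the lists, 5 had every R1 library above every SR86 library, but the most abundant, CHIT17 (LOC_Os05g33130), kept 96.2 to 496 FPKM in SR86 with 855 to 875 FPKM in R1. The share of all loci so separated was not taken, here or for the families below, and the lists were chosen on these libraries. Such counts therefore only describe the families. The plastocyanin-like LOC_Os06g50420, of a family of copper-binding cell-surface proteins, reached 12.2, 9.14 and 14.1 FPKM in R1, and every SR86 library lists it at 0.

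Among the loci of protein turnover, LOC_Os07g34850, an aspartic proteinase of the nepenthesin type, had the largest finite ratio of the whole set, 670.0. It had 22.0, 20.1 and 21.3 FPKM in R1, and a single value above 0 in SR86, 0.03 FPKM in SR86 SW2. The proteasome maturation factor UMP1, a chaperone for the assembly of the proteasome core, gave 2 members. LOC_Os03g38720 had 16.7, 15.02 and 15.5 FPKM in R1 and 0.08 FPKM in SR86 FW2 alone. LOC_Os09g14590 had 10.4, 13.2 and 10.1 FPKM in R1 and 0.12 FPKM in SR86 FW1 alone. The only other UMP1 locus in the lists, LOC_Os02g55640, was far more abundant in both strains, with 106 to 133 FPKM in R1, 219 to 228 FPKM in SR86 FW and 108 to 142 FPKM in SR86 SW. The low signal in SR86 thus held for the minor UMP1 loci and not for the major one. F-box proteins, which select targets for ubiquitin ligases, gave 3 members of the 73 F-box loci in the lists, each with an R1 mean under 10 FPKM.

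The AAA-type ATPase LOC_Os12g28550 had 14.4, 13.9 and 13.5 FPKM in R1 and was above 0 in all 6 SR86 libraries, at 0.36 to 1.36 FPKM. It is paired on chromosome 12 with the transposon LOC_Os12g28580, at 5.15 to 7.35 FPKM in R1 and 0 in SR86. Next to that transposon, the ATPase LOC_Os12g28590 was listed at 0 in all 3 R1 libraries and had 1.35 to 2.92 FPKM in SR86 FW and 0 to 4.04 FPKM in SR86 SW. LOC_Os12g28590 thus ran opposite to the loci beside it.

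Among the metabolic loci, the acyl-CoA dehydrogenase LOC_Os06g23870, of a family that oxidises fatty acids and amino acid derivatives, had 74.5, 89.4 and 63.4 FPKM in R1 and at most 0.24 FPKM in SR86. The acyl-activating enzyme LOC_Os03g01140 had 41.7, 44.6 and 40.8 FPKM in R1. In SR86 it had 0.09 FPKM in SR86 FW2, 0.40 FPKM in SR86 SW1 and 0.30 FPKM in SR86 SW3, with 0 in the other 3 libraries. Both were close to 0 in SR86 in either water.

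Of the metabolic loci, 2 belong to families that act on cytokinins, hormones of cell division. The cytokinin dehydrogenase LOC_Os01g10110, of the enzymes that degrade cytokinins, had 19.7, 16.3 and 22.6 FPKM in R1, 1.79, 0.59 and 0.32 FPKM in SR86 FW, and 0.73, 0.45 and 0.56 FPKM in SR86 SW. It was the most abundant of the 4 cytokinin dehydrogenase loci in the lists in R1, ahead of LOC_Os01g09260 at 8.36 to 10.2 FPKM, which also stood above all its SR86 values of 1.19 to 4.37 FPKM. The cytokinin-N-glucosyltransferase LOC_Os07g13800, whose family inactivates cytokinins by adding a sugar, had 11.1, 9.40 and 11.4 FPKM in R1 and 0.18 to 0.53 FPKM in SR86. Glucosyltransferases of this name did not run together: of 14 in the lists, 4 had every R1 library above every SR86 library and 9 had every R1 library below. No share over all loci stands beside these counts.

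Of the intracellular proteins, LOC_Os06g24920, similar to a protein that binds DNA at scaffold attachment regions, stood out by its SR86 values. It had 55.6, 59.1 and 49.9 FPKM in R1. The 3 SR86 FW libraries list it at 0, and those of SR86 SW at 4.73, 0.22 and 0.42 FPKM. The cyclin LOC_Os05g26020 had 7.26, 7.51 and 6.68 FPKM in R1 and an even 0.49 to 0.73 FPKM over all 6 SR86 libraries. LOC_Os11g04910, an ankyrin repeat protein, had 8.09, 8.17 and 6.64 FPKM in R1 and at most 0.12 FPKM in SR86. The NLR locus LOC_Os11g15670 had 11.5, 10.1 and 11.2 FPKM in R1 and 0.13 FPKM in SR86 FW1 alone. It was 1 of 152 NLR loci in the lists, of which 38 had every R1 library above every SR86 library and 40 the reverse. These counts, too, have no share over all loci beside them.

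Mobile elements were mostly low in R1 as well, with a median R1 mean of 7.22 FPKM. The exception was the retrotransposon LOC_Os02g45040, with 84.5, 69.4 and 91.9 FPKM in R1 and 0.24 to 1.51 FPKM in SR86. LOC_Os12g43680, a retrotransposon, came next with 10.4, 14.0 and 7.69 FPKM in R1, and was 1 of 4 mobile elements listed at 0 in all 6 SR86 libraries. With the floor raised from 5 to 10 FPKM, only LOC_Os02g45040 of the 12 mobile elements was left.

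Among the 32 proteins of unknown function, LOC_Os04g48730 had the highest level, with 122, 124 and 116 FPKM in R1. Its SR86 values were even, at 6.90, 9.49 and 12.03 FPKM in FW and 9.49, 9.49 and 9.30 FPKM in SW. LOC_Os05g33560 had 85.9, 87.6 and 88.8 FPKM in R1 and at most 0.16 FPKM in SR86. LOC_Os01g71540 had 90.5, 83.7 and 88.6 FPKM in R1, 5.5 FPKM in SR86 FW1, 0 in SR86 FW2 and SR86 FW3, and at most 0.36 FPKM in SR86 SW. It lies near the end of chromosome 1, in a stretch of 10 features ending at LOC_Os01g71630 whose sums were 245 to 254 FPKM in R1, 27.1 to 142 FPKM in SR86 FW and 2.30 to 2.45 FPKM in SR86 SW. SR86 FW1 had the highest of the SR86 sums. LOC_Os08g30510, the locus without annotation, reached 16.6, 22.1 and 11.8 FPKM in R1, with 0 listed for SR86.

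The 73 loci were spread over all 12 chromosomes. They made up from 0.188 per 100 loci past the 5 FPKM limit on chromosome 2, with 3 members, to 1.04 per 100 on chromosome 12, with 7. Of the members, 8 (11% of the 73) had another member within 5 features of the table's order, as the 4 pairs on chromosomes 1, 4, 10 and 12. The same share was not taken for other sets of loci, so 11% cannot be called low or high. The pair on chromosome 4 are the expressed proteins LOC_Os04g38270, at 10.03 to 11.9 FPKM in R1 and at most 0.04 FPKM in SR86, and LOC_Os04g38290, at 12.9 to 14.3 FPKM in R1 and 0.42 to 0.97 FPKM in SR86. No 3 members formed a run. Of the 285 loci within 2 features of a member, 61 had at least 5 FPKM in every R1 library, a share of 21.4% against 22.7% of all loci. That limit leaves out neighbours seen in SR86 alone, such as LOC_Os12g28590. Of these 61, 44 (72.1%) had group means within 2-fold between R1 and SR86, 12 (19.7%) were at least 2-fold higher in R1 and 5 (8.2%) at least 2-fold higher in SR86. Over all 13095 loci these shares were 91.3%, 5.17% and 3.57%. The difference between the flanking loci and all loci was not tested, since neighbours are not independent of the loci that chose them.

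Within R1, the 73 loci had a median coefficient of variation between libraries of 8.61%, against 6.66% for all 13095 loci. The order of the R1 libraries, which the limits used, is given as a description. The lowest R1 library was R1 FW2 in 26 loci and R1 FW3 in 42, and R1 FW1 in 5. For all 13095 loci it was R1 FW2 in 38.6% and R1 FW3 in 50.2%. Of the 9 secreted defence and signal peptides, 8 were lowest in R1 FW2, the exception being RALFL26, and their median log2 ratio of R1 FW2 to the mean of the other R1 libraries was -0.46. These 9 include the 2 Bowman-Birk and the 2 thaumatin loci, which share arrays. Of the 32 unknown proteins, 23 were lowest in R1 FW3 and the median log2 ratio was 0.10. Over the other classes with more than 1 member it ran from -0.13 to 0.11. The same ratio over all 13095 loci had a median of 0.02. R1 FW2 was also the deepest of the 6 FW libraries, and the part of depth in this order was not tested.

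**Figure D4:**
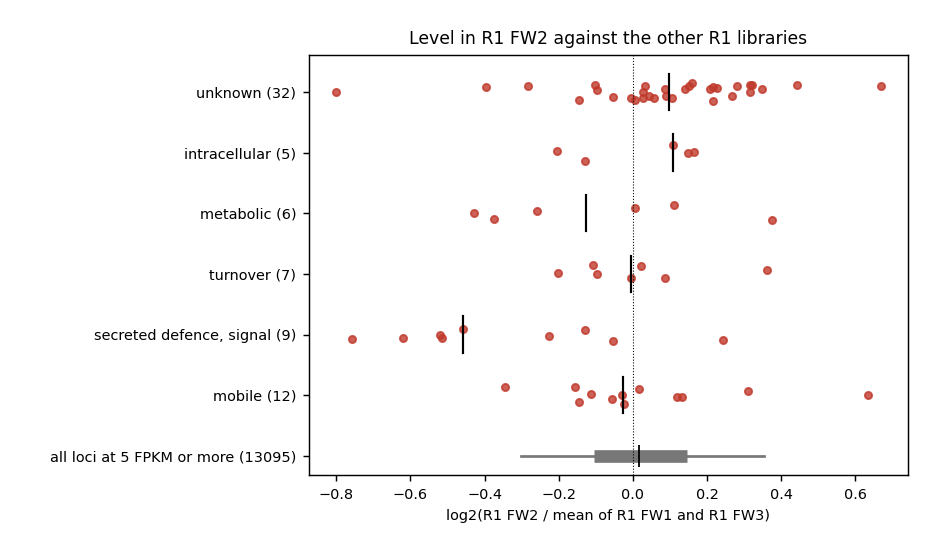
Log2 ratio of the FPKM in R1 FW2 to the mean of R1 FW1 and R1 FW3 (horizontal axis) for the members of each annotation class with more than 1 member (points, with a line at the median). The grey bar at the bottom spans the 25th to 75th percentile of all 13095 loci and its thin line the 5th to 95th. The class of secreted defence and signal peptides lies to the left, with 8 of 9 below 0.

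The comparison of SR86 in SW with SR86 in FW was not used to choose the loci, although both waters had to be low, which limits how far a member could move. It asks whether the low remaining transcript level of these loci in SR86 followed the water. Features averaging 0.5 FPKM or more over the 6 SR86 libraries, 23718 in all, were tested on log2(FPKM + 0.5) with limma, and calls needed both a change of at least 2-fold and an adjusted p (Benjamini-Hochberg) under 0.05. Of these, 8.41% were called higher in SW and 4.29% lower. Of the 73 loci, 58 were too low in SR86 to be tested and 15 passed the filter. None of the 15 was called higher, with 0 at an unadjusted p under 0.05 in that direction, and 1 was called lower. With 15 loci tested, counts of 0 and 1 are near those shares. The median log2 fold change of the 15 was 0.03, against 0.17 for all features tested. After quantile normalization the medians were -0.21 for the 15 and 0.01 for all features, and after median-ratio scaling -0.14 and 0.02.

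RALFL26 was the 1 member called. Its mean was 112 FPKM in SR86 FW and 45.5 FPKM in SR86 SW, with no overlap between the libraries, and the log2 fold change was -1.29 ± 0.26 (standard error), with an adjusted p = 0.0248 in limma. The call was lost when SR86 FW2, SR86 SW1 or SR86 SW2 was left out, at limma adjusted p of 0.0863, 0.0868 and 0.0742, with log2 fold changes of -1.25, -1.09 and -1.29. Without SR86 FW1 it held, at -1.49 (limma adjusted p = 0.0428). Other loci of its family fell as well. Of the 9 RALF loci in the study's lists, all 9 were tested, 5 were called lower in SW, RALFL26 among them, and 0 higher. The lists were themselves chosen on these libraries, so this count is not independent evidence. RALFL27 fell from 194 to 50.8 FPKM (log2 fold change -1.93, limma adjusted p = 0.011) and RALFL29 from 1647 to 494 FPKM (log2 fold change -1.77, limma adjusted p = 0.0254).

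In the thaumatin array, LOC_Os12g43410, LOC_Os12g43430 and LOC_Os12g43440 fell in SW by 2.68, 2.80 and 2.75 on the log2 scale (limma adjusted p = 0.0145, 0.0131 and 0.0169). The members at its ends were not called: the log2 fold change was 0.21 ± 0.61 in LOC_Os12g43380 (limma, adjusted p = 0.823) and -0.75 ± 0.70 in LOC_Os12g43490 (limma, adjusted p = 0.456), with standard errors. Whether the members differ from the loci between them in this response was not tested.

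The largest value among the members not called was that of LOC_Os06g24920, at 1.6 ± 0.73 (limma, adjusted p = 0.15). It had no signal in FW, and its SW mean of 1.79 FPKM rested on SR86 SW1. The log2 values of BBTI3 and BBTI5 were 0.78 ± 0.50 (limma, adjusted p = 0.288) and -0.28 ± 0.48 (limma, adjusted p = 0.696). LOC_Os04g38290 had 0.73 to 0.97 FPKM in FW and 0.42 to 0.63 FPKM in SW, or -0.44 ± 0.25 on the log2 scale (limma, adjusted p = 0.229). LOC_Os04g48730 stayed closest to 0, at 0.03 ± 0.22 (limma, adjusted p = 0.941). In the same libraries, the features named LOC_Osm1 summed to 992 to 2518 FPKM in SR86 FW and 244 to 568 FPKM in SR86 SW, without overlap. The sums of the markers overlapped between the waters. They were 295 to 1023 FPKM in FW and 857 to 1685 FPKM in SW for the 3 root markers. For the 3 leaf markers they were 6.80 to 34.9 FPKM in FW and 3.74 to 7.2 FPKM in SW. The part of all these sums in the result was not tested. In whole roots, fewer cells of a type and less RNA per cell cannot be told apart.

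**Figure D5:**
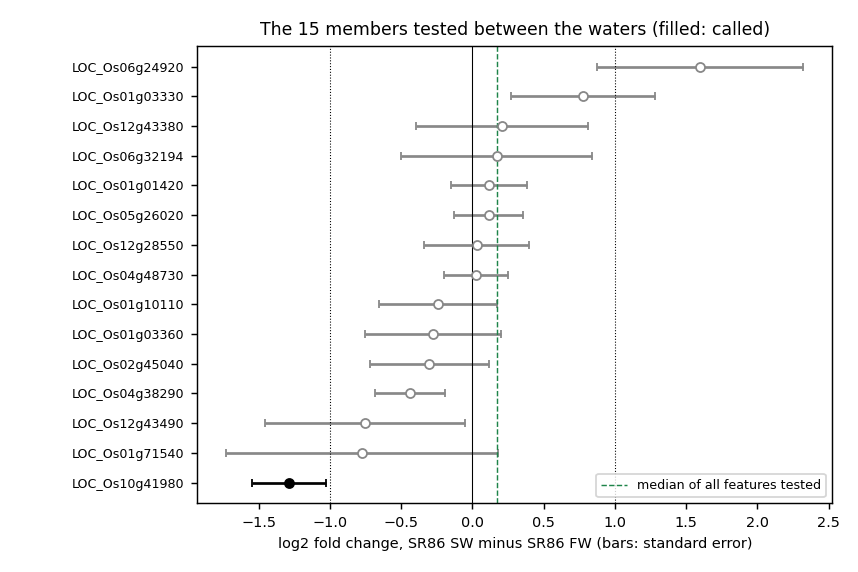
Log2 fold change between SR86 SW and SR86 FW (horizontal axis, bars are standard errors) for the 15 members that could be tested (vertical axis), with the median of all features tested as a dashed line and 2-fold limits dotted. RALFL26 (LOC_Os10g41980, filled) is the 1 locus called, at -1.29, and LOC_Os06g24920 lies highest at 1.6.

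Set against 1 water at a time, more loci met the limits, 101 against SR86 FW alone and 121 against SR86 SW alone. These counts were taken after the data were seen. All 73 are among both by construction, 28 loci met the limits against FW only and 48 against SW only. Loci of the first kind that reached 5 FPKM in some SW library numbered 13. LOC_Os12g01160 (dehydrogenase) had 5.26 to 8.04 FPKM in R1, 0 to 0.34 FPKM in SR86 FW and 5.48 to 16.5 FPKM in SR86 SW. LOC_Os07g33860 (60S ribosomal protein L44) had 101 to 130 FPKM in R1 and was kept out by a single library, SR86 SW2, at 32.0 FPKM, with at most 0.79 FPKM in the others. Of the second kind, 27 loci reached 5 FPKM in some FW library. The tandem pair LOC_Os08g04210 and LOC_Os08g04240 (cysteine-rich repeat secretory protein 55) had 50.6 to 94.4 and 36.7 to 64.3 FPKM in R1. Both were kept out by SR86 FW3 alone, at 159 and 53.0 FPKM, with at most 0.34 FPKM in the other FW libraries and at most 5.96 FPKM in SW.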

How the data were processed

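Root RNA was sequenced from stranded mRNA libraries. Base calls came from CASAVA 1.8, per the labels. After trimming (Trimmomatic), the authors aligned reads by Bowtie2 against MSU6 transcripts, from which RSEM gave expression values. The study also names a normalization between libraries (TMM, trimmed mean of M-values). Whether the FPKM values include it is not known. The authors deposited FPKM values, 1 column per library, rounded to 2 decimals and with 0 missing. All 9 columns were matched to a library. FPKM holds no counts, so the edgeR test the authors used was not run. The columns were used without rescaling.

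The 73 loci were taken by the limits given above (raw FPKM, no pseudocount), and the members and lists were chosen with earlier results of these data known. Annotations, but no values, came from the study's supplementary lists, of which 2 were used in a shortened form. None of the locus names was found in the reference gene table (0 of 73), so no sequences are shown. Low FPKM values from 0.05 to 1 gave relative depth, from the commonest ratio between libraries, a step tested on simulated data.

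SR86 SW and SR86 FW were compared over all features by limma 3.58.1 (R 4.3.3) after log2(FPKM + 0.5) (variance trend, mean of at least 0.5 FPKM, Benjamini-Hochberg adjustment), tested on simulated data. Its p-values measure the spread between these libraries only. With 3 libraries a group, precision is limited by that number. Loci named were the 12 with the highest R1 mean, up to 3 per annotation class (2 for mobile elements and unknown proteins), up to 6 called between the waters, and 3 on either side of each limit. The other secreted, UMP1 and cytokinin members, the pair on chromosome 4, and the neighbours and family loci were chosen after their values were seen. Alternatives were other limits, scalings, pseudocounts, filters, all 9 libraries in 1 fit, a replicate block and leaving out each library. Python 3.11.15, pandas 2.3.3, numpy 2.4.6 and matplotlib 3.10.9 were used.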

Additional observations from a re-analysis of the deposited data

How the results depend on the processing

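The number of loci was 73 with the limits used, 107 at 4-fold, 62 at 16-fold, 129 with a floor of 2 FPKM, 39 with a floor of 10 FPKM, 112 on group means, 76 with median-ratio size factors and 77 with quantile normalization. These 2 scalings kept 72 and 71 of the 73. Leaving out a library can only loosen the limits, so it keeps all 73 by construction, and gave 75 to 85 loci. Against SR86 SW alone the number was 121, an alternative chosen after seeing the data. Loci at 0 throughout SR86 were 31 with the floor of 2 FPKM and 4 with the floor of 10 FPKM. Loci with a neighbour within 5 features were 2 to 22 over all limits. Of 128 counts per annotation class under the alternatives, 110 were within 1.5 times the value reported.

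Between the waters, 0 members were called higher under any alternative. Called lower was 1 in all of them but those that left out a library, which gave 0 to 1. The log2 fold change of RALFL26 ran from -1.49 to -1.09 over 14 alternatives, and its limma adjusted p from 0.00512 to 0.0868. The median log2 fold change of members tested lay between -0.17 and 0.07 when 1 library was left out, and at -0.21 after quantile normalization. Members that were never called changed sign. With quantile normalization these were LOC_Os01g01420 (-0.21), LOC_Os04g48730 (-0.17), LOC_Os05g26020 (-0.16), LOC_Os12g28550 (-0.26) and LOC_Os12g43380 (-0.11). With median-ratio size factors they were LOC_Os01g01420 (-0.026), LOC_Os04g48730 (-0.14) and LOC_Os12g28550 (-0.071), and with a pseudocount of 0.1 LOC_Os12g28550 (-0.0082). With a library left out the ranges that crossed 0 were -0.005 to 0.33 for LOC_Os01g01420, -0.56 to 0.18 for LOC_Os01g10110, -0.17 to 0.21 for LOC_Os04g48730, -0.18 to 0.46 for LOC_Os06g32194, -0.17 to 0.39 for LOC_Os12g28550, -0.45 to 0.54 for LOC_Os12g43380 and -1.27 to 0.068 for LOC_Os12g43490. The cause was not tested.

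Deviations of same-numbered SR86 FW and SR86 SW libraries from their group means correlated at -0.06, 0.01 and 0.15. No values for libraries of different numbers stand beside these, so they cannot settle whether the samples were paired. With the replicate number as a block, 1 member was called lower and 0 higher, and the median log2 fold change was 0.03. Values near 0 rest on few reads, and depth, copies that share reads and sequence differences between the strains limit what a low value in SR86 shows.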

Other observations

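The 14 loci listed at 0 in every SR86 library were 7 of the proteins of unknown function (LOC_Os09g13954 among them, whose annotation is empty), 4 mobile elements, the thionin-like LOC_Os07g25050, the plastocyanin-like LOC_Os06g50420 and the unannotated LOC_Os08g30510. None of the loci of protein turnover, metabolism or intracellular function was among them. Apart from LOC_Os07g25050, the highest R1 mean of these loci was 31.3 FPKM, in LOC_Os09g13954. Beside LOC_Os08g30510 lies LOC_Os08g30520, a protein of unknown function with 0.81 to 1.03 FPKM in R1, which was listed at 0 in all 6 SR86 libraries as well.

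The stretch of chromosome 1 that opens with LOC_Os01g71540 varied between the SR86 FW libraries. LOC_Os01g71630, at its end, had 117, 120.1 and 110.5 FPKM in R1, 95.7, 23.6 and 25.2 FPKM in SR86 FW and 0.17, 0.09 and 0.04 FPKM in SR86 SW. LOC_Os01g71590 had 24.0, 21.8 and 25.01 FPKM in R1, 31.0, 1.94 and 13.3 FPKM in SR86 FW and 0.71 to 0.73 FPKM in SR86 SW. LOC_Os01g71549 and LOC_Os01g71599 had the same 9 values, so these 2 features cannot be told apart in the table.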
